A study of Mus musculus with 10 samples.

Results

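The glycolysis and hypoxia response genes described here are 34 genes chosen by name, from glucose uptake through the enzymes of glycolysis to lactate export, with the oxygen-sensing factors and the targets by which a hypoxia response is commonly recognised. Of the 34, 31 were measured on the arrays, through 71 probe sets, among 18193 genes in all. Gapdh was read only through array control probe sets and is given apart, and Gpi1 and Eno1 were not analysed here. The choice used no measured value, but it was made with earlier results of these arrays known.

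The mRNA of cultured primary mouse keratinocytes, taken from FVB animals at P1, was measured on Affymetrix expression arrays. Undifferentiated keratinocytes, kept in low calcium, were hybridised to 2 arrays, and keratinocytes differentiated for 2 days in raised calcium to 4. A further 2 arrays hold differentiated keratinocytes expressing A-C/EBP, a dominant negative protein that blocks DNA binding by the C/EBP factors and was under tetracycline control, and 2 hold differentiated keratinocytes treated with 5-AZA (5-azacytidine), an inhibitor of DNA methylation. Per the study's methods, the A-C/EBP cells came from mice expressing A-C/EBP, named apart from wild type FVB mice. The medium of these cultures first held doxycycline, and its removal after 1 day in culture induced A-C/EBP. For 5-AZA the labels give the same time, while the study's methods place its addition earlier, on the day of seeding. Whether the differentiated controls carry the A-C/EBP transgene, and whether arrays of a group come from separate cultures, is not stated in the sources used here, so the p-values reflect no more than how far these arrays scatter, which may be technical.

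Glycolysis splits glucose into pyruvate in the cytoplasm. Hexokinases trap the sugar, phosphofructokinase commits it, and the lower enzymes recover ATP. Pyruvate is then either burned in mitochondria or reduced to lactate and exported. The hypoxia-inducible factor, whose oxygen-controlled subunit is Hif1a, raises many of these genes when oxygen is short. The prolyl hydroxylases Egln1 and Egln3 mark that subunit for destruction when oxygen is present, and Egln3 is itself a target of the factor. Epidermis lies away from blood vessels and is known for mild hypoxia and a high output of lactate.

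The factor binds a short core, ACGTG or GCGTG, read on either strand. Promoter windows are shown for the members called in any comparison below, except Ndrg1, because the core is commonly looked for there. For Aldoc, the first of its start sites in the table is shown. The windows run from 250 bases before to 50 after the start site (RefSeq, build GRCm38.p6), and capitals mark the core on either strand.
Slc16a1, chr3:104638414-104638713, plus strand: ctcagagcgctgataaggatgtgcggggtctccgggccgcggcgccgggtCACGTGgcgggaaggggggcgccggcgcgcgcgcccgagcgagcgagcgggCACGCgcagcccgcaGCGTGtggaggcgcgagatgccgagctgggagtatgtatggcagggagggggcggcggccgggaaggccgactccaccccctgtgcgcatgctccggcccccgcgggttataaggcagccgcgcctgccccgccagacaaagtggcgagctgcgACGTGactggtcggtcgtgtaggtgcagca
Hk2, chr6:82774405-82774704, minus strand: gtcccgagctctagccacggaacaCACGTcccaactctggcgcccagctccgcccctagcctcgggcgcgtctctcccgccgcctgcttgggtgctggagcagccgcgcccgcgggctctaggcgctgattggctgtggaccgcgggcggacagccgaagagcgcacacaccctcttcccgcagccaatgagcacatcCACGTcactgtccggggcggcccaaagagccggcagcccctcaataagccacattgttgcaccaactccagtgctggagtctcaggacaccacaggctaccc
Adm, chr7:110627407-110627706, plus strand: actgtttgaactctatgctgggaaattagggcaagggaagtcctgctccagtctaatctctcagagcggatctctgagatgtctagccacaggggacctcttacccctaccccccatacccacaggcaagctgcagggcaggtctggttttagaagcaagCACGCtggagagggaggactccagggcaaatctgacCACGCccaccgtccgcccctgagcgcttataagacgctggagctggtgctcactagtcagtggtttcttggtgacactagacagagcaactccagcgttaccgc
Aldoc, chr11:78322823-78323122, plus strand: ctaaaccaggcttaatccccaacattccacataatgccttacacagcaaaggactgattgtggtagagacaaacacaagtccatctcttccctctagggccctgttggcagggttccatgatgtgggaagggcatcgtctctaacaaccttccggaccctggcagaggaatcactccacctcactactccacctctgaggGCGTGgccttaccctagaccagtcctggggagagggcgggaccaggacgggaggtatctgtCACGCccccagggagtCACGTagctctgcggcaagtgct
Pfkfb4, chr9:108991652-108991951, plus strand: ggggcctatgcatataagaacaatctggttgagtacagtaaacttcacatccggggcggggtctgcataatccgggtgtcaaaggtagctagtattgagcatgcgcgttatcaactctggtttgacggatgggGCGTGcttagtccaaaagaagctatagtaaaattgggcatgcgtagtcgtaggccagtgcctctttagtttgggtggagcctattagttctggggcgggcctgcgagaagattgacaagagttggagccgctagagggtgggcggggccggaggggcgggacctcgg
Egln3, chr12:54203825-54204124, minus strand: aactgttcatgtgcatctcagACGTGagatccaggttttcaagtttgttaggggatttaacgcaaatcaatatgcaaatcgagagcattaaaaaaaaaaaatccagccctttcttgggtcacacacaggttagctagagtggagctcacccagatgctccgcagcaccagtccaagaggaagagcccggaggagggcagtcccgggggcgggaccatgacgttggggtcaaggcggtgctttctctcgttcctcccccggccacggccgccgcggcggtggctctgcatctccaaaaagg

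The Slc16a1 window holds 5 matches, of which the first pair are the opposite strands of 1 CACGTG, while those of Pfkfb4 and Egln3 hold 1 each. Of the 34 members 33 have windows, 49 in all. ACGTG lies in 55.1% of these windows and in 19.6% of the 32851 windows of the whole table, and GCGTG in 57.1% and 32.4%. At least 1 of the cores lies in 81.6% of the members' windows and in 43.8% of all windows. CACGTG, which contains ACGTG, lies in 14.3% and 7.15%. The C/EBP consensus TTGCGCAA lies in 0 of the 49 windows and in 0.183% of all, the CREB element TGACGTCA in 1 (Ldha) and in 1.79%, and the AP-1 element TGACTCA in 2 (Aldoa and Car9) and in 5.2%. A match is a run of letters and not a shown binding site. Some windows of the same gene overlap and share matches, as for Pfkm, Aldoa and Eno1. The shares are not matched for base composition, and enrichment was not tested.

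The keratinocyte label held on the arrays, with Krt5 at 12.7 to 13.9 and Krt14 at 11.3 to 12.1 on the log2 scale. Melanocyte markers were also present, with 7 of 7 measured and each above the array median in at least 9 of 10 arrays, Dct at 9.96 to 11.3 and a mean over the list of 7.93 to 8.72 per array. Of the fibroblast markers, Col1a1 lay at 6.19 to 8.36 and Lum below the array median on every array. Array medians lay between 4.64 and 4.78, and the hybridization controls averaged 9.03 to 11.3, highest in A-C/EBP 2. Some markers moved with differentiation. Krt5 was lower after it (13.93 on both arrays, then 12.88 to 13.42), as were Dsc3 and Sfn, while Krt14 overlapped. Of the melanocyte markers, Dct (10.82 to 11.03, then 9.96 to 10.74) and Tyr (5.37 to 5.46, then 4.52 to 5.11) were lower. The other melanocyte markers overlapped. Trp63, the basal regulator p63, lay at 8.32 to 8.69 before and 6.93 to 7.27 after. The differentiation genes of the keratinocyte list were mixed. Krt10 was lower after (8.33 to 9.96, then 7.60 to 8.10), as was Krt1 (9.18 to 10.98, then 8.385 to 9.17). Ivl was higher (9.72 to 10.38, then 10.72 to 11.11), and Lor overlapped (7.43 to 8.32, then 7.835 to 8.43). The muscle gene Acta1 lay at 8.19 to 8.90 and 9.83 to 10.94, the immune gene Csf1r at 6.25 to 6.38 and 7.001 to 7.226, and the fibroblast gene Thy1 at 5.11 to 5.58 and 5.81 to 6.51. On every array, 3 of 6 immune, 2 of 5 muscle, 4 of 8 fibroblast, 1 of 5 endothelial and 1 of 3 measured erythroid markers lay above the array median. Lyz2, Csf1r, Acta1 and Kdr were among these. Below it on every array lay 3 immune, 2 muscle, 1 fibroblast, 3 endothelial and 1 erythroid marker, with Ptprc, Pecam1 and Myh3 among them. In bulk samples, fewer cells of a type and less RNA per cell cannot be told apart, and the part of other cell types in the values below was not tested.

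Upon differentiation, the members split. Pfkfb4 and Aldoc rose 2.98-fold and 2.63-fold, while Slc16a1, Hk2 and Adm fell 2.55-fold, 2.31-fold and 2.07-fold (limma, adjusted p under 0.05). The other 26 measured members did not pass the test. Over all genes, 6.64% rose and 9.14% fell. Among the members the shares were 6.45% and 9.68%, so the counts are close to the background and are no result about the members as a group. By the mean difference of 0.5 that the study's methods used, 4 members were higher and 5 lower (12.9% and 16.1%), against 7.23% and 8.87% of all genes. That background includes dim genes, and the shares are not matched for brightness. Without the dimmest 40% of genes, 1263 of the 10916 left were higher and 1492 lower by that difference. Of the 31 members 24 lay below 0, with a median difference of -0.21 on the log2 scale, where the median of all genes was -0.01. The 5 calls fell in transport, upper glycolysis, its regulation and the hypoxia targets, and 0 fell in lower glycolysis or among the enzymes at the fate of pyruvate.

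**Figure D1:**
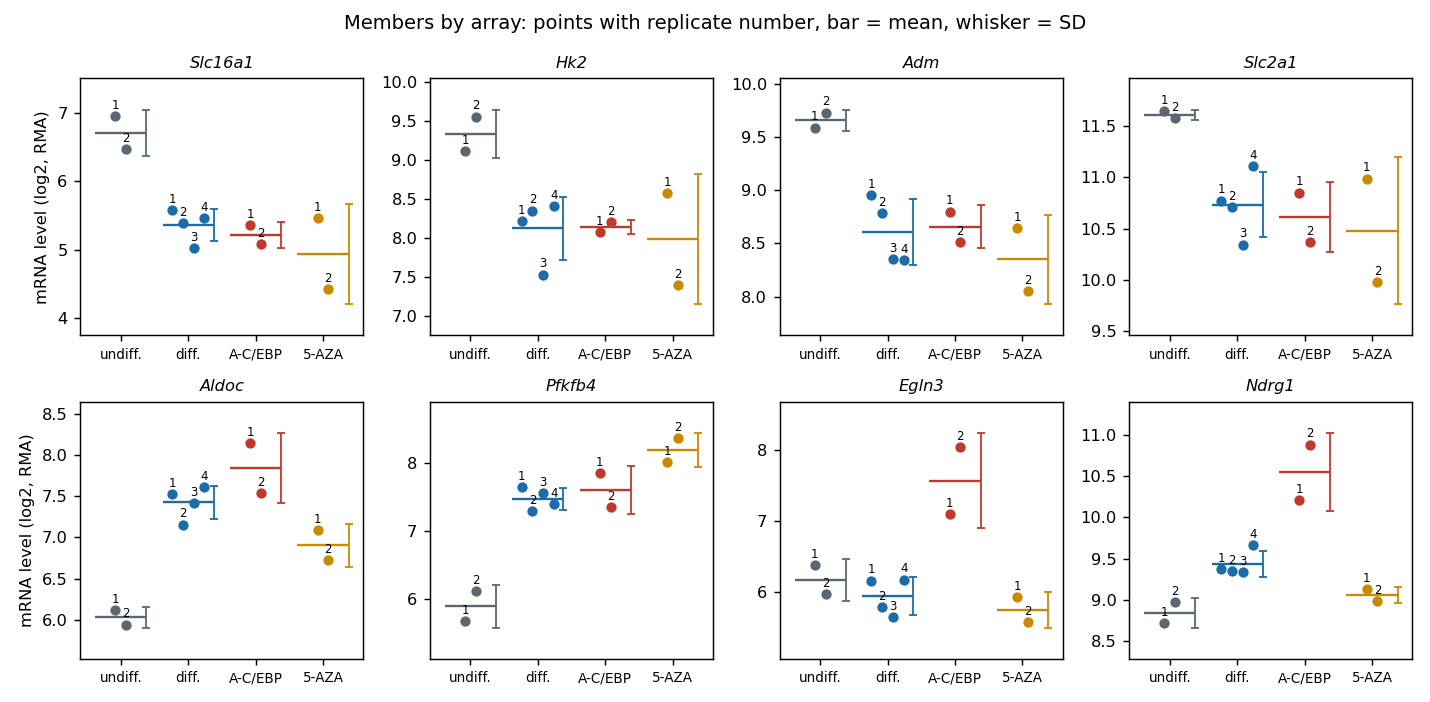
Log2 mRNA level (vertical axis, RMA) of the 7 called members and Slc2a1 in each of the 10 arrays by group, with points numbered by replicate, bars for means and whiskers for SD. Slc16a1, Hk2, Adm and Slc2a1 were highest in both undifferentiated arrays, Aldoc and Pfkfb4 lowest there, and Egln3 and Ndrg1 highest in both A-C/EBP arrays.

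Among the transporters, Slc16a1, the lactate carrier MCT1, had log2 levels of 6.95 and 6.47 in undifferentiated cells and of 5.57, 5.39, 5.03 and 5.46 in differentiated cells. Both undifferentiated arrays were above every other array. The log2 difference was -1.35 ± 0.27 (SE, limma, adjusted p = 0.00643). The gene averages a bright probe set, which went from 10.03 and 9.32 to between 6.33 and 7.42, with a dim one between 3.54 and 3.88 in the same 6 arrays. The bright probe set alone gave a difference of -2.60. Without undifferentiated 1 the averaged difference was -1.11 and the adjusted p 0.0909.

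Slc2a1, the glucose carrier GLUT1, stood at 11.6 in both undifferentiated arrays and at 10.8, 10.7, 10.3 and 11.1 in differentiated cells. The groups did not overlap, but the log2 difference of -0.88 ± 0.28 missed the threshold (adjusted p = 0.0605). It passed in 8 of 23 alternative limma fits. All 3 of its probe sets were lower, by between -0.92 and -0.84. Slc16a3, the lactate exporter MCT4, ranged from 6.10 to 7.35 over all 10 arrays, and its groups overlapped.

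In upper glycolysis, Hk2, the inducible hexokinase, had log2 levels of 9.11 and 9.55 in undifferentiated cells and of 8.22, 8.35, 7.53 and 8.40 in differentiated cells. The lowest undifferentiated array was above the highest differentiated one. The log2 difference of -1.21 ± 0.32 (adjusted p = 0.0292) was the least stable of the 5 calls and was lost in 6 of 23 alternative fits. Without undifferentiated 2 it was -0.99 (adjusted p = 0.22), without undifferentiated 1 -1.43 (adjusted p = 0.081) and without differentiated 1 -1.24 (adjusted p = 0.0529). Hk1, the hexokinase found in most tissues, lay at 7.86 and 7.49 before and between 7.80 and 8.56 after differentiation, with a difference of 0.55 ± 0.28 (adjusted p = 0.28).

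Aldoc, the aldolase best known from brain, had log2 levels of 6.12 and 5.94 in undifferentiated cells. Differentiated cells had 7.52, 7.15, 7.42 and 7.61, clear of the former. The log2 difference was 1.40 ± 0.19 (adjusted p = 0.00075), and the call held in 23 of 23 alternative fits. Both of its probe sets were higher, by 0.90 and 1.89. The main aldolase of glycolysis in most cells, Aldoa, lay within 11.3 to 11.7 on every array. The phosphofructokinases Pfkl, Pfkm and Pfkp and the isomerase Tpi1 did not pass either. Pfkl averages bright probe sets, which differed by -0.63 and -0.55, with a dim one that differed by -0.06.

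Pfkfb4, which makes and breaks fructose 2,6-bisphosphate, the activator of phosphofructokinase, went from 5.68 and 6.12 to 7.65, 7.29, 7.56 and 7.39. The groups did not overlap, and all 4 differentiated arrays were above both undifferentiated ones. The log2 difference of 1.57 ± 0.18 (adjusted p = 0.000341) was called in 23 of 23 alternative fits and rests on 1 probe set. Its relatives Pfkfb2 and Pfkfb3 did not pass, and Pfkfb3 ranged from 5.02 to 6.20 over all arrays.

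In lower glycolysis, none of the 4 measured enzymes passed. Pgk1, a kinase that yields ATP, stayed between 12.2 and 12.5 on all arrays, with a difference of 0.20 ± 0.09 (adjusted p = 0.192). Pgam1, the mutase of the pathway, had its lowest level, 11.36, in 5-AZA 2, and Pkm, the pyruvate kinase, ranged from 11.6 to 12.8. Eno2, the neuronal enolase, lay at 3.33 to 3.70, below the median of every array, so that signal above background was not shown. Gapdh, read from 3 control probe sets in a fit that included them, averaged 13.7 ± 0.08 (SD, n = 2) in undifferentiated and 13.3 ± 0.23 (SD, n = 4) in differentiated cells (difference -0.37 ± 0.17 SE, adjusted p = 0.209).

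At the fate of pyruvate, both lactate dehydrogenases had lower means after differentiation without passing the test. Ldha, the form that favours lactate, lay at 13.0 and 12.9 before and between 12.4 and 12.7 after (difference -0.40 ± 0.15, adjusted p = 0.11). Ldhb, the form that favours pyruvate, lay at 9.30 and 9.12 before and between 8.42 and 8.86 after (difference -0.50 ± 0.16, adjusted p = 0.0585). Neither gene had overlapping groups. Pdk1, a pyruvate dehydrogenase kinase, ranged from 5.61 to 6.59 over all arrays and did not pass.

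The oxygen-controlled subunit itself, Hif1a, had log2 levels of 7.68 and 7.62 in undifferentiated cells and of 7.28, 6.94, 7.13 and 7.31 in differentiated cells. These groups did not overlap, and the difference of -0.49 ± 0.16 missed the threshold (adjusted p = 0.0762), although it passed in 7 of 23 alternative fits. Of its 4 probe sets, 1 stayed between 3.71 and 3.93 in these 6 arrays and the others were lower by between -0.86 and -0.43. Egln1, the main oxygen sensor, lay between 7.97 and 8.86 on all arrays.

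Among the hypoxia targets, Adm, the vasodilator adrenomedullin, had 9.59 and 9.73 in undifferentiated cells and 8.96, 8.79, 8.35 and 8.34 in differentiated cells. Both undifferentiated arrays were above all others. The log2 difference was -1.05 ± 0.21 (adjusted p = 0.00726), shared by both probe sets (-1.08 and -1.02). It was -0.98 without undifferentiated 2, where the call was lost (adjusted p = 0.0674).

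Vegfa, the vascular growth factor, lay at 7.42 and 7.17 before and at 7.04, 6.71, 7.26 and 7.33 after differentiation. The groups overlapped (difference -0.21 ± 0.20, adjusted p = 0.643). Car9, the carbonic anhydrase used as a marker of hypoxia, lay at 4.30 and 4.19 and then at 4.56, 4.25, 4.47 and 4.53, below the median of every array (difference 0.20 ± 0.15, adjusted p = 0.508). The mitophagy receptor Bnip3 (9.29 to 10.05 over all arrays), Ankrd37 (4.93 to 5.75) and the mitochondrial protein Higd1a (6.81 to 7.42) did not pass. The probe sets of Higd1a disagreed, with a difference of -0.43 for the brightest and of 0.11 and 0.23 for the dimmer ones. With the brightest probe set per gene, Higd1a was called lower (limma, adjusted p = 0.0187).

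**Figure D2:**
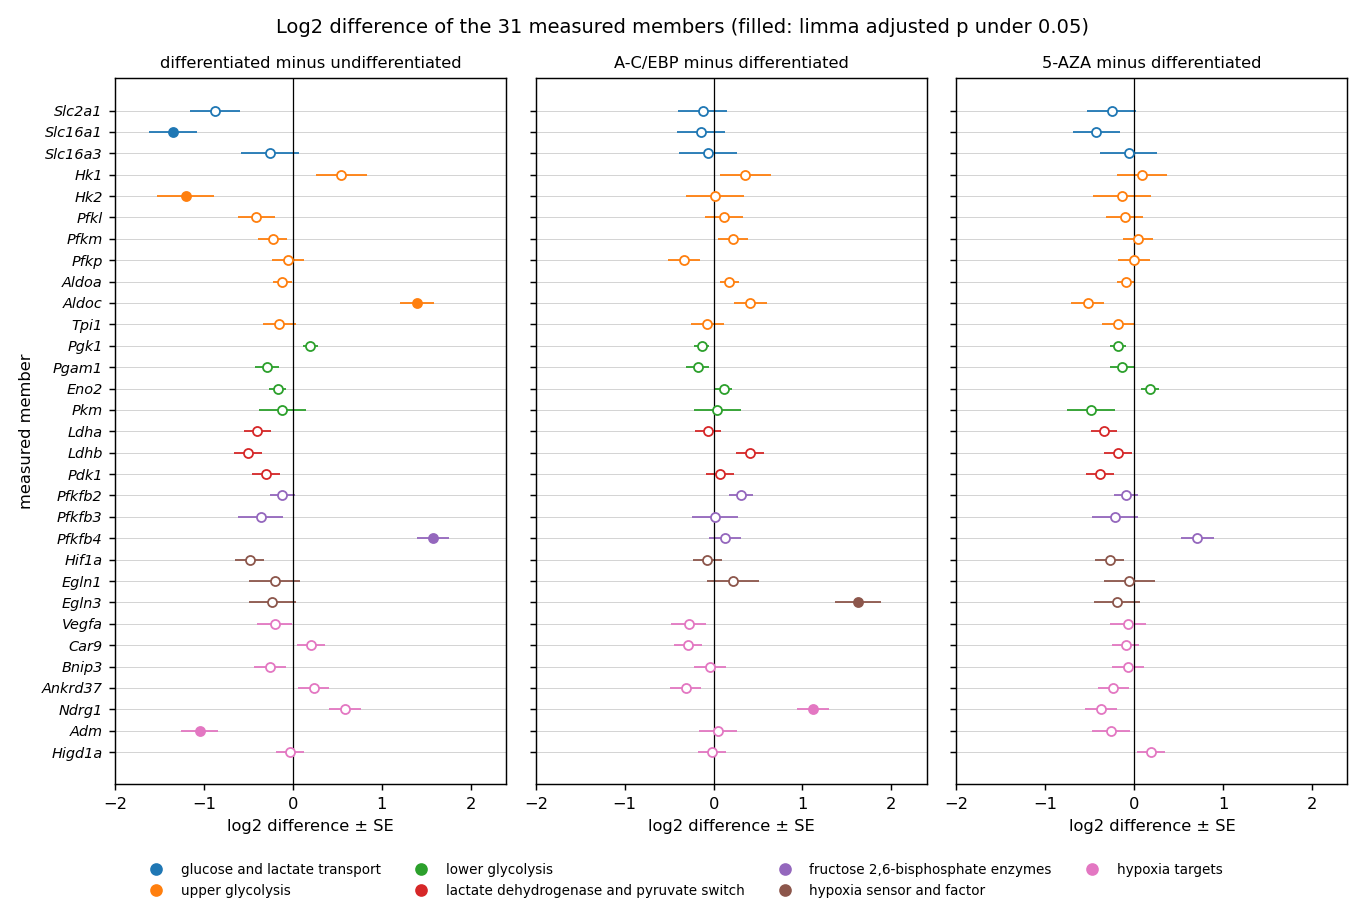
Log2 difference ± SE (horizontal axis) of each of the 31 measured members (vertical axis, coloured by role) in the 3 comparisons, where filled points had a limma adjusted p under 0.05. Differentiation has 5 filled points, A-C/EBP has 2 (Egln3 and Ndrg1) and 5-AZA has 0.

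With A-C/EBP in differentiated cells, 2 members rose and 0 fell. Egln3, the oxygen-sensing hydroxylase that the factor induces, rose 3.08-fold and Ndrg1, a stress and differentiation gene that is a common marker of hypoxia, rose 2.17-fold. The other 29 did not pass, and 3 members had an unadjusted p under 0.05, as did 13.6% of all genes. Over all genes, 1.49% rose and 0.572% fell, against 6.45% and 0% of the members, which is 2 genes. Past a mean difference of 0.5, 2 members were higher and 0 lower, where 3.71% and 3.03% of all genes were. The members' median difference was 0.02 and that of all genes 0.01.

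Egln3 had log2 levels of 7.09 and 8.03 with A-C/EBP, against 6.15, 5.78, 5.64 and 6.17 in the differentiated controls. The undifferentiated arrays, at 6.38 and 5.96, and the 5-AZA arrays, at 5.92 and 5.57, were near the controls. The log2 difference from the controls was 1.62 ± 0.26 (adjusted p = 0.015). Both of its probe sets were higher, by 1.43 and 1.82.

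Ndrg1 had 10.2 and 10.9 with A-C/EBP, against 9.37, 9.35, 9.34 and 9.66 in the controls. The undifferentiated arrays were lowest of all, at 8.72 and 8.97, and the 5-AZA arrays lay at 9.13 and 8.99. The log2 difference from the controls was 1.12 ± 0.18 (adjusted p = 0.015), and its 5 probe sets were higher by 1.01 to 1.22. Upon differentiation alone, Ndrg1 differed by 0.59 ± 0.18 and just missed the threshold (adjusted p = 0.0524).

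**Figure D3:**
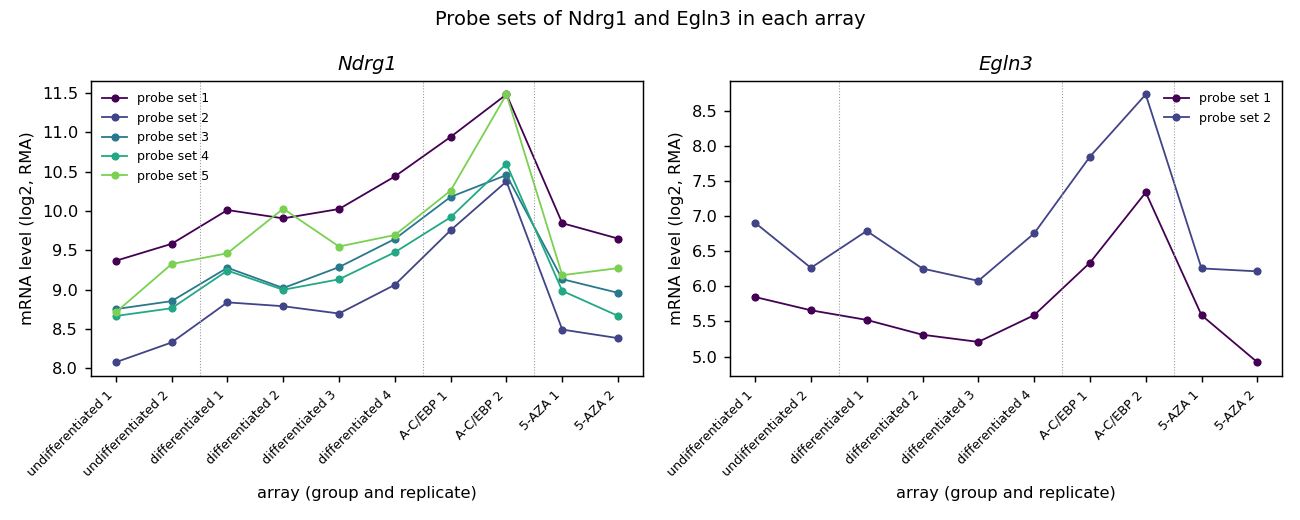
Log2 level (vertical axis, RMA) of the 5 probe sets of Ndrg1 and the 2 of Egln3 in each of the 10 arrays (horizontal axis, dotted lines between groups). Every probe set was highest in A-C/EBP 2, and the next highest array was A-C/EBP 1.

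Both genes were higher in A-C/EBP 2 than in A-C/EBP 1, and A-C/EBP 2 also had the highest hybridization controls. With these controls as a covariate the differences were 1.58 for Egln3 (adjusted p = 0.0228) and 0.98 for Ndrg1 (adjusted p = 0.0154). Without A-C/EBP 2 they were 1.15 (adjusted p = 0.139) and 0.78 (adjusted p = 0.132), and the calls were lost. They were also lost with only differentiated arrays 1 and 2 or only 3 and 4 as controls, at differences of 1.59 and 1.66 for Egln3 and of 1.19 and 1.05 for Ndrg1.

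None of the other hypoxia members passed the test with A-C/EBP. Hif1a lay at 7.30 and 6.89 with A-C/EBP, Vegfa at 7.02 and 6.59, Car9 at 4.45 and 3.88 and Adm at 8.80 and 8.52, and each overlapped the controls. Slc2a1 lay at 10.8 and 10.4, Slc16a1 at 5.36 and 5.09 and Hk2 at 8.08 and 8.21, and these also overlapped the controls. Ldhb, at 9.08 and 9.15, lay above all 4 controls (difference 0.41 ± 0.16, adjusted p = 0.27).

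With 5-AZA, 0 of the 31 members passed, and 4 had an unadjusted p under 0.05, as did 9.1% of all genes. By the methods' t-test, 0 passed after adjustment and 4 at its unadjusted threshold (1 higher and 3 lower). Over all genes, 4.51% were higher and 2.12% lower at that threshold. Few genes passed at all in this comparison (0.17% rose and 0.115% fell). Past a mean difference of 0.5, 1 member was higher and 1 lower, where 1.89% and 2.09% of all genes were. Of the members 26 of 31 lay below 0, with a median of -0.14, where that of all genes was 0.04. Without 5-AZA 1 this median was -0.39 and without 5-AZA 2 it was 0.05.

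Pfkfb4 lay at 8.01 and 8.36 with 5-AZA, above every other array (difference from the controls 0.71 ± 0.18, adjusted p = 0.208). Aldoc lay at 7.09 and 6.72, below all 4 differentiated controls and above both undifferentiated arrays (difference -0.52 ± 0.19, adjusted p = 0.417). The 5-AZA arrays were far apart for several members. Hk2 lay at 8.58 and 7.40, Slc2a1 at 10.99 and 9.97, Slc16a1 at 5.46 and 4.42 and Ldha at 12.5 and 11.9, each lower in 5-AZA 2. For Adm they were 8.65 and 8.05, for Hif1a 7.11 and 6.66, for Vegfa 7.23 and 6.81 and for Car9 4.39 and 4.32.

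This array was low for the enzymes as a whole. The mean log2 level of 12 measured glycolytic enzymes was 8.67 in 5-AZA 2 and lay between 8.87 and 9.22 elsewhere. In each of the 4 groups it was lower in the array numbered 2 than in that numbered 1. It also moved with the spread of all values on an array. The 5 arrays whose 75th percentile over all probe sets lay between 6.93 and 7.08 are the 4 numbered 2 and differentiated 3, and they had enzyme means of 8.67 to 9.04, while the 5 arrays with a percentile of 7.14 to 7.21 had 9.14 to 9.22. The 3′ minus 5′ difference of the actin controls, a sign of RNA quality, was also highest in 5-AZA 2 (0.68, against 0.09 to 0.37 elsewhere). That of the Gapdh controls was highest in A-C/EBP 2 (0.098), the array with the highest Egln3 and Ndrg1. In 5-AZA 2 it was -0.031, within the -0.179 to -0.030 of the remaining arrays. With the 75th percentile as a covariate, all 7 calls against undifferentiated or differentiated cells held, with differences of -1.14 for Slc16a1, -1.11 for Hk2, -0.98 for Adm, 1.58 for Egln3 and 1.13 for Ndrg1.

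**Figure D4:**
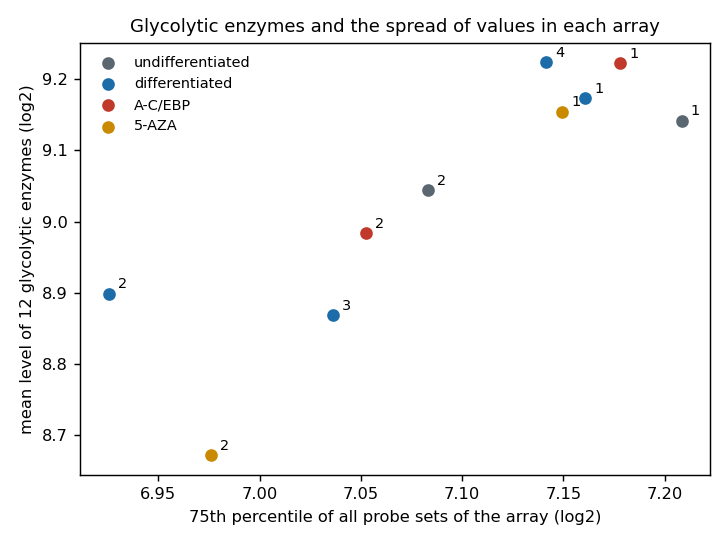
Mean log2 level of the 12 glycolytic enzymes (vertical axis) against the 75th percentile of all probe sets (horizontal axis, log2), 1 point per array, coloured by group and numbered by replicate. Arrays with a percentile of 7.14 or above had enzyme means of 9.14 to 9.22 in every group, and 5-AZA 2 had the lowest mean, 8.67.

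The comparisons of A-C/EBP and of 5-AZA share their 4 controls, so the treated arrays were compared directly, which tests whether the effects differ. Here 3 members were higher with A-C/EBP and 0 lower, against 2.06% and 1.13% of all genes. Past 0.5, 5 members were higher and 1 lower, where 5.34% and 4.68% of all genes were. The differences were 1.82 ± 0.30 for Egln3 (adjusted p = 0.0128), 1.49 ± 0.21 for Ndrg1 (adjusted p = 0.006) and 0.94 ± 0.22 for Aldoc (adjusted p = 0.0485). The Aldoc call held in only 11 of 23 alternative fits, that of Egln3 in 20 and that of Ndrg1 in 21. Without 5-AZA 2 none of the 3 was called, with adjusted p = 0.296 for Aldoc, 0.101 for Egln3 and 0.0562 for Ndrg1, and none was called when only these 4 arrays were fitted. Egln3 also lost the call without A-C/EBP 2 (1.35, adjusted p = 0.0657). Aldoc lost it in 8 of the 10 fits that left out 1 array, that without A-C/EBP 1 among them (0.64, adjusted p = 0.21).

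Other genes of the pathway were taken from lists that hold no member. Of 48 measured genes of sugar metabolism, 4 rose and 3 fell upon differentiation and 41 did not pass. These shares, 8.33% and 6.25%, are near the 6.64% and 9.14% of all genes. The largest of these changes named here was in Slc2a3, the high-affinity glucose carrier GLUT3. Its log2 levels were 4.82 and 4.70 in undifferentiated cells and 7.534, 6.497, 7.426 and 6.991 in differentiated cells (difference 2.35 ± 0.36, adjusted p = 0.00158), while the mean of Slc2a1 was lower. Pgm2, a phosphoglucomutase, rose by 0.89 ± 0.11 (adjusted p = 0.000483) and Pgam2, the muscle mutase, by 0.88 ± 0.18 (adjusted p = 0.00784). Pdk3, a pyruvate dehydrogenase kinase, fell by 0.57 (SE 0.12, adjusted p = 0.0109). Pgam2 and Pdk3 lost the call without undifferentiated 1. Slc2a3 lost it without probe sets ending in _s_at, _x_at or _a_at (1.48, adjusted p = 0.0808), and its difference ranged from 1.48 to 3.36 over the alternatives.

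With A-C/EBP, 3 of the 48 rose and 1 fell (6.25% and 2.08%, against 1.49% and 0.572% of all genes). By more than 0.5, 9 were higher and 1 lower (18.8% and 2.08%, against 3.71% and 3.03% of all genes). An unadjusted p under 0.05 was found for 12, where 13.6% of all genes had one. Mpc1, a subunit of the mitochondrial pyruvate carrier, had 9.05 and 8.96 against 8.18, 8.27, 8.50 and 8.29 in the controls (difference 0.70 ± 0.12, adjusted p = 0.0185). Pcx, the carboxylase that turns pyruvate into oxaloacetate, rose by 1.27 ± 0.27 (adjusted p = 0.0423) and the glucose carrier Slc2a12 by 0.81 ± 0.16 (adjusted p = 0.0315). Slc2a12 was dim, at 5.48 and 4.82 against 4.22 to 4.41 in the controls, and lay below the array median on 7 of 10 arrays. Pgam2 fell by 0.87 (SE 0.18, adjusted p = 0.0415). The calls of Pcx and Slc2a12 held in 11 of 22 alternative fits and that of Pgam2 in 13 of 23, and all 3 were lost without either undifferentiated array, among others. Over these fits Pcx ranged from 0.74 to 1.63, Slc2a12 from 0.48 to 1.14 and Pgam2 from -1.18 to -0.57. Mpc1 was called in 18 of 22 and lost without differentiated 4 or either A-C/EBP array. With 5-AZA, 0 of the 48 passed, and 3 had an unadjusted p under 0.05, against 9.1% of all genes. Slc2a3 lay at 8.84 and 7.47 with A-C/EBP and at 6.01 and 6.05 with 5-AZA (difference 2.12 ± 0.41, adjusted p = 0.0251), and Mpc1 differed between the treatments by 0.80 ± 0.14 (adjusted p = 0.014). Between the treatments, Slc2a3 lost the call without A-C/EBP 1 or either 5-AZA array, and Mpc1 without either A-C/EBP array or 5-AZA 2.

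**Figure D5:**
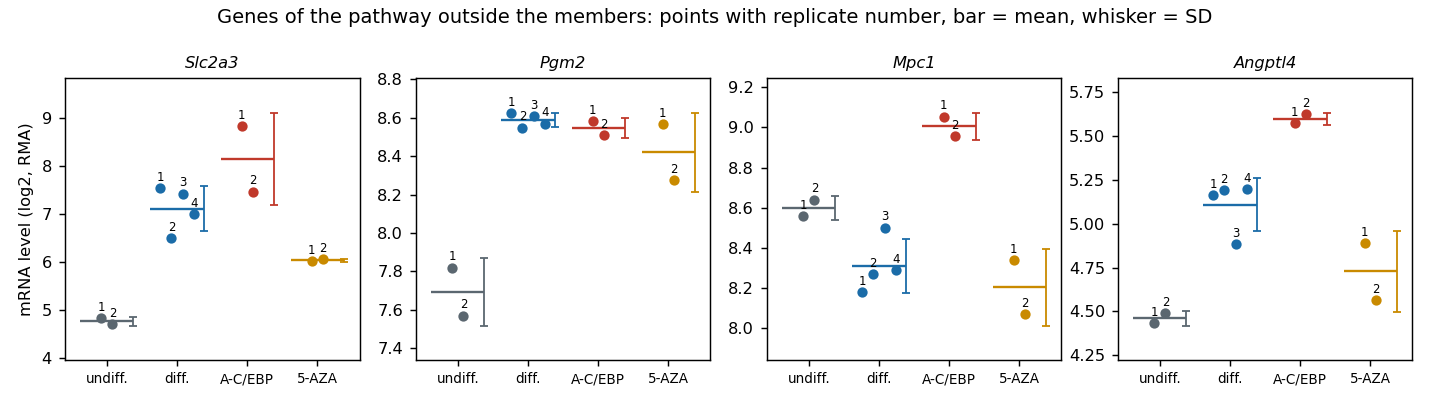
Log2 level (vertical axis, RMA) of Slc2a3, Pgm2, Mpc1 and Angptl4 in each array by group, with points numbered by replicate, bars for means and whiskers for SD. Slc2a3, Pgm2 and Angptl4 were lowest in both undifferentiated arrays, and Mpc1 was highest in both A-C/EBP arrays.

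Of 38 measured genes of the wider hypoxia response, 6 rose and 2 fell upon differentiation (15.8% and 5.26%, against 6.64% and 9.14% of all genes). Cited2, which competes with the factor for its coactivator, rose by 1.32 ± 0.13 (adjusted p = 0.000126), the transcriptional repressor Bhlhe40 by 1.83 ± 0.18 (adjusted p = 0.000157) and Ccng2, a cyclin linked to cell cycle arrest, by 1.87 ± 0.21 (adjusted p = 0.000299). Anln, an actin-binding protein of dividing cells, fell by 1.88 (SE 0.27, adjusted p = 0.00118). These 4 calls held in 23 of 23 alternative fits. Bhlhe40 lay at 9.73 and 9.21 in undifferentiated cells and between 11.1 and 11.6 in differentiated cells, while Adm fell in the same arrays.

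With A-C/EBP and with 5-AZA, 0 of the 38 passed, and 11 and 4 had an unadjusted p under 0.05, where 13.6% and 9.1% of all genes did. With A-C/EBP, 25 of the 38 lay below 0, and 6 were lower and 0 higher by more than 0.5 (15.8% and 0%, against 3.03% and 3.71% of all genes). Between the treatments Angptl4, a secreted inhibitor of lipoprotein lipase, was higher with A-C/EBP (5.58 and 5.62 against 4.89 and 4.57, difference 0.87 ± 0.14, adjusted p = 0.0128). Its difference ranged from 0.06 to 1.69 over the alternatives, and the call held in 19 of 23. Without probe sets ending in _s_at, _x_at or _a_at the difference was 0.06 (limma, adjusted p = 0.906). The call was also lost without A-C/EBP 2, without 5-AZA 2 and when only the compared groups were fitted.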

How the data were processed

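Gene expression was measured on Affymetrix mouse arrays in 10 samples in 4 groups of 2 to 4. The deposited log2 values come from RMA, run by the authors in Affymetrix Expression Console per the submitters' notes on processing (versions not given in the sources used here). RMA fits each probe set over all arrays and sets the distributions of probe values alike, so a shift shared by most genes would be lost. The probe set values still differed between arrays, with 75th percentiles of 6.93 to 7.21. Their maximum was 13.7 in differentiated 2 and 14.4 to 14.6 elsewhere. Differentiated 2 also had the lowest mean of the actin controls (13.5, against 13.8 to 14.1 elsewhere). The values were used without a second normalization.

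The 45101 probe sets divide into 34958 annotated with 1 symbol, 932 with several and 9211 with none. Those with 1 symbol, apart from array controls (64 in all), were averaged per gene, which gave 18193 genes. Gene numbers matched RefSeq for 34754 probe sets and changed 0 symbols. Gpi1 and Eno1 had no probe set with 1 symbol here.

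All 10 arrays entered 1 limma fit (limma 3.58.1, R 4.3.3) with a mean per group and empirical Bayes moderation. Two-sided p-values were adjusted by Benjamini-Hochberg over all genes, and "rose" and "fell" mean an adjusted p under 0.05. The fit was tested on simulated data. The study's threshold, a mean difference over 0.5, and the methods' t-test, applied here gene by gene, were also run. So were other normalizations, probe set rules, filters, covariates and fits without each array. The 75th percentile as a covariate and the motifs TTGCGCAA, TGACGTCA and TGACTCA were added after the data were seen.

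Members and lists were chosen with earlier results of these data known. All members were described, with every array for those called and for Hif1a, Slc2a1, Vegfa and Car9. From each of the other lists, up to 4 genes per comparison with the smallest adjusted p were named. Values for single arrays of Hk1, Ldha and Ldhb were added after they were seen. Replicate numbers follow the titles, since both A-C/EBP descriptions carry the same number. The precision is limited by 2 to 4 arrays per group. Python 3.11.15, pandas 2.3.3 and matplotlib 3.10.9 made tables and figures.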

Additional observations from a re-analysis of the deposited data

Results flagged for a closer look

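Among the 4 differentiated arrays, 1 array lay far from the others for 2 of the 31 members, where chance marks about 1 in 20. Pfkm, the muscle phosphofructokinase, was at 5.93 in differentiated 2, and the gap to the next array took 0.846 of the group's range (up to 6.47). Ndrg1 was at 9.66 in differentiated 4, above the others from 9.34, with a gap of 0.909 of the range.

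The effects of A-C/EBP and of 5-AZA differed by the limma test of the difference for Aldoc (0.94), Egln3 (1.82) and Ndrg1 (1.49) among the members, and for Mpc1 (0.80), Slc2a3 (2.12) and Angptl4 (0.87) outside them, all higher with A-C/EBP. The contrast rests on 2 arrays against 2. Without probe sets ending in _s_at, _x_at or _a_at the Angptl4 difference was 0.06. Aldoc, Egln3 and Ndrg1 each lost the call without 5-AZA 2.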

How the results depend on the processing

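Upon differentiation, Pfkfb4 and Aldoc were called in 23 of 23 limma alternatives, Slc16a1 and Adm in 22 and Hk2 in 17. Members that fell numbered 3 in the fit reported. They were 5 after quantile normalization and without the dimmest 40% of genes, and 7 with the brightest probe set per gene, with a replicate block and when only the compared groups were fitted. They ranged from 1 to 6 when 1 array was left out. The methods' t-test gave 0 falls after adjustment, and 4 rises and 9 falls unadjusted, and the difference of 0.5 gave 4 and 5. Among all 18193 genes, falls numbered 1662 as reported, 1810 after quantile normalization and 1766 with the brightest probe set. They numbered 2031 with the block, 1638 with only the compared groups and 1577 of 10916 without the dimmest 40%. By the methods' t-test, 488 of all genes fell after adjustment, and 1696 rose and 2329 fell unadjusted. With the replicate block, Slc2a1, Hk1, Pfkl, Hif1a, Bnip3 and Vegfa (-0.42, adjusted p = 0.0255) were also called and Hk2 was not. Vegfa, not called in the fit reported (-0.21), was at 0.0061 with differentiated arrays 3 and 4 only.

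The 2 rises with A-C/EBP became 0 with differentiated arrays 1 and 2 only or 3 and 4 only and under the methods' adjusted t-test, and ranged from 0 to 2 when 1 array was left out. Among all genes, rises with A-C/EBP numbered 271 as reported, 78 and 55 with these controls only, and 0 under that t-test. With 5-AZA, the methods' t-test unadjusted gave 1 rise and 3 falls and the difference of 0.5 gave 1 and 1. The median there ranged from -0.39 to 0.0484 when 1 array was left out. Over all genes, the split with 5-AZA was 31 higher and 21 lower as reported and 30 and 32 after median centring of each array. Between A-C/EBP and 5-AZA, the 3 members that were higher became 5 with the replicate block, 0 when only these groups were fitted, 0 and 1 under the methods' t-test adjusted and unadjusted, and 5 (with 1 lower) at a difference of 0.5. They ranged from 0 to 3 and the median from -0.0752 to 0.51 when 1 array was left out. Among all genes, 374 were higher with A-C/EBP than with 5-AZA as reported, 817 with the block and 68 when only these groups were fitted. Under the methods' t-test they were 0 adjusted and 642 unadjusted. The cause of these changes was not tested.

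Over all members and other named genes, 151 of 3570 alternative values had the other sign, and 0 of these were called in either fit. Same-numbered arrays deviated together with correlations from 0.093 to 0.43 and the labels state no pairing, so the block is given here as a shared number only. The low levels of Eno2 and Car9 limit what could be detected for them.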
